A study of Homo sapiens with 8 samples.

Results

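A set of 10 genes for epithelial protease inhibitors outside the serpin family were followed across an RNA-sequencing study of esophageal epithelial cells. They were taken by symbol from a deposited table of 25369 genes, and all 10 were found: SPINK5, SPINK6, SPINK7, WFDC5, WFDC12, PI3, SLPI, CSTA, CST6 and A2ML1. The cells were EPC2-hTERT, a human esophageal epithelial line immortalised with telomerase. One stable line carried a lentiviral control short hairpin RNA (shCtrl), and the other a lentiviral short hairpin RNA against HIF1A (HIF1A-KD), which encodes the HIF-1 subunit that is stabilised in low oxygen. Both lines were grown to confluence for 2 days on membranes with 0.4 µm pores. High calcium (1.8 mM) followed for 5 days, and the medium above the cells was then removed for 4 days, which leaves the surface in air and lets such cells stratify. There were 4 libraries of each line, numbered 1 to 4 in the labels. Nothing in the labels says that they came from separately derived lines, so p-values measure the spread between these cultures or libraries only. Dimethyloxalylglycine, which blocks prolyl hydroxylases, and its vehicle are mentioned in the labels without a library being given for either. By its title, the series is about HIF-1α in eosinophilic esophagitis, in terms of metabolism and of how the epithelium differentiates.

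Stratified epithelia release proteases that cut the contacts between their outermost cells, and they make inhibitors that hold those proteases in check. SPINK proteins carry Kazal domains and act on serine proteases such as the kallikreins. WFDC proteins carry the four-disulfide whey acidic protein domain, and those encoded by PI3 (elafin) and SLPI inhibit neutrophil elastase. The cystatins of CSTA and CST6 block cysteine proteases such as the cathepsins and legumain. A2ML1 encodes a broad inhibitor of the α2-macroglobulin family, which traps proteases. Loss of SPINK5 function causes Netherton syndrome, a disorder of the skin barrier, and SPINK7 is known for low expression in eosinophilic esophagitis.

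The libraries held between 38068729 and 65326907 reads, as implied by the deposited values, which are RPKM, read counts scaled for gene length and library size. HIF1A itself held 95.2, 51.4, 89.8 and 122 RPKM in shCtrl 1 to 4 and 27.6, 19.0, 54.8 and 45.0 RPKM in HIF1A-KD 1 to 4. It was lower in all 4 pairs of equal number, although HIF1A-KD 3 lay above shCtrl 2. The log2 change of HIF1A was −1.34 (limma adjusted p = 0.319 unpaired and 0.0253 with the library number as a block, which compares libraries of equal number). No label states that libraries of equal number are pairs, and for numbers 3 and 4 the pairing is uncertain. As a check of the cell type, of 10 squamous epithelial markers all were detected, with summed RPKM of 20474 to 26574 in shCtrl and 21685 to 27100 in HIF1A-KD. Of 8 fibroblast, 8 leukocyte, 4 endothelial and 4 melanocyte markers, 1, 2, 1 and 1 reached 0.5 RPKM in 4 libraries. In that order they were COL1A1, CD68 with CD14, VWF, and PMEL. CD68 held 71.23 ± 40.2 RPKM in shCtrl and 51.01 ± 27.63 in HIF1A-KD, and CD14 4.852 ± 3.655 and 3.26 ± 2.016. VWF held 4.711 ± 7.077 and 5.097 ± 5.245 RPKM, and PMEL 0.6715 ± 0.238 and 0.9848 ± 0.7467 (SD, n = 4 each). PTPRC, CD3E, ELANE, THY1, MLANA and TYR were at 0 in every library. Among the squamous markers 1 of 10 passed with the block, against 1.83% of all tested genes. It was CDH1, the E-cadherin gene, which fell (log2 change −0.79, limma adjusted p = 0.0318, and 0.545 unpaired). Of the 10 estimates 6 were above 0 and 4 below. KRT4 held 386 ± 242 RPKM in shCtrl and 1521 ± 355 in HIF1A-KD, without overlap. KRT13 held 253 ± 289 and 801 ± 330 RPKM (SD, n = 4 each). Their log2 changes of 2.15 and 2.37 did not pass (limma adjusted p = 0.107 and 0.465 unpaired, 0.0786 and 0.116 with the block). The summed squamous RPKM is led by KRT6A, KRT5 and KRT14. The 1 fibroblast marker above the filter, COL1A1, was at 23.7 ± 2.84 RPKM in shCtrl and at 15.6 ± 2.43 in HIF1A-KD (SD, n = 4 each), without overlap (limma adjusted p = 0.319 unpaired and 0.0920 with the block). Summed fibroblast markers were 21.2 to 27.7 RPKM in shCtrl and 14.1 to 19.2 RPKM in HIF1A-KD. The part of these markers in the results below was not tested.

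Promoter sequence from RefSeq (GRCh38.p14) was at hand for 4 of the 10 genes, SPINK5, SPINK6, SPINK7 and A2ML1. The entries for 3 of them are shown, because SPINK5 and SPINK7 are the abundant Kazal-type inhibitors of these cultures and A2ML1 has entries for 2 start sites. Each line gives the 250 bases before the annotated start, 5′ to 3′. Capitals mark every match, on either strand, to TATAAA, to the core letters bound by HIF (ACGTG and GCGTG) or to TGANTCA, the letters bound by AP-1.
SPINK5 (chr5:148063730-148063979, plus strand): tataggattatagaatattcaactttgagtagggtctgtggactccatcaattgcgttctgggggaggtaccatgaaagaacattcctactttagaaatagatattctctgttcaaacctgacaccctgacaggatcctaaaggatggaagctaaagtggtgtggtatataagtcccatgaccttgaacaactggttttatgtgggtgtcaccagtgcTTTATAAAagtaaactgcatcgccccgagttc
SPINK7 (chr5:148312173-148312422, plus strand): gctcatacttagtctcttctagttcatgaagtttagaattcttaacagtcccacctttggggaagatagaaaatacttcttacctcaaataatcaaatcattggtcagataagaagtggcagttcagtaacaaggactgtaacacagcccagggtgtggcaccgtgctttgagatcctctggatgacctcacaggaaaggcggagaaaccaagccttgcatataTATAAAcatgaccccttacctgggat
A2ML1, first start (chr12:8822371-8822620, plus strand): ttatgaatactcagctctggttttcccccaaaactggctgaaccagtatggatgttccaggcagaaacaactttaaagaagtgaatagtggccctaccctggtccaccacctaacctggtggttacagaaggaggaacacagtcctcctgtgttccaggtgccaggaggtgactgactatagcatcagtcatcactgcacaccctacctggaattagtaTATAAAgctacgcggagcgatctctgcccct
A2ML1, the other start (chr12:8844754-8845003, plus strand): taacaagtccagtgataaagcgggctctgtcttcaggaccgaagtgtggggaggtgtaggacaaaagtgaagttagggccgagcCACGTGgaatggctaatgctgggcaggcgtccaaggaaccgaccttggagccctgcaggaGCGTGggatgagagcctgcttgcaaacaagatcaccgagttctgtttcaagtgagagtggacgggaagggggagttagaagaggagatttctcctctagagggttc
TATAAA lay in the windows of SPINK5, SPINK7 and the first A2ML1 start, and in 10.7% of all 35116 promoter windows of this length. In SPINK5 the 2 strands' matches overlap. ACGTG was found only in the window of the other A2ML1 start, where its matches on the 2 strands overlap as CACGTG, and GCGTG was found once in the same window. Of all windows, 18.5% held the first and 32.2% the second of these. The AP-1 letters were in none of the windows of these 4 genes and in 6.57% of all. A match to so few letters is a description of the sequence only.

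The inhibitors differed widely in level and were led by PI3 and SLPI. In shCtrl, PI3 was the gene of highest RPKM of the whole table in libraries 1 and 3, with ranks of 3 and 2 in libraries 2 and 4. SLPI ranked 5, 5, 5 and 3 in shCtrl. In HIF1A-KD 1 to 4 the ranks were 2, 4, 16 and 8 for PI3 and 17, 16, 12 and 14 for SLPI. The inhibitors' mean RPKM in shCtrl ran, from high to low, through PI3, SLPI, CSTA, SPINK7, SPINK5, WFDC12, A2ML1, CST6, WFDC5 and SPINK6. Neighbours in that order overlapped in range for SPINK7 with SPINK5, SPINK5 with WFDC12, A2ML1 with CST6 and CST6 with WFDC5. In HIF1A-KD, PI3, SLPI and CSTA overlapped one after the other, and A2ML1 stood above WFDC12 in 4 of 4 libraries.

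**Figure D1:**
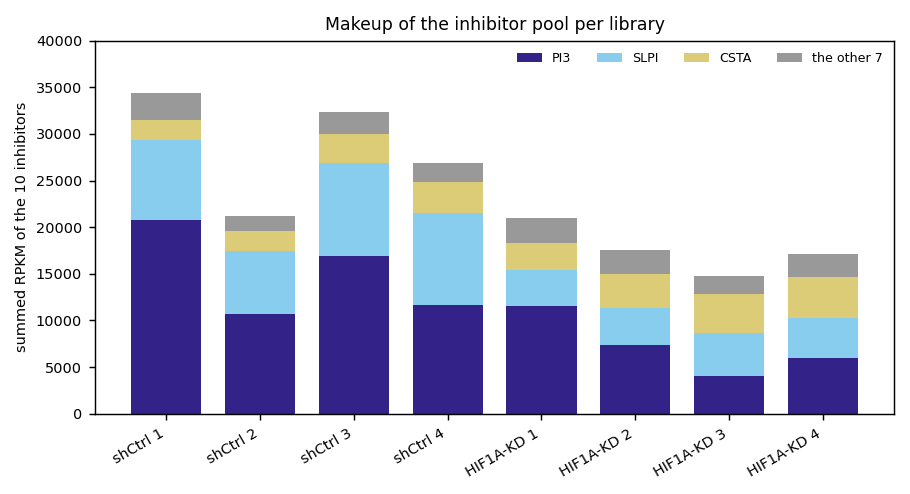
Summed RPKM of the 10 inhibitors in each library (bars from 0), split into PI3, SLPI, CSTA and the other 7 genes. PI3 and SLPI together made 80.0 to 85.4% of the sum in shCtrl and 58.4 to 73.7% in HIF1A-KD.

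Summed over the 10 genes, shCtrl held 28733 ± 5928 RPKM and HIF1A-KD 17594 ± 2564 RPKM (SD, n = 4 each). PI3 and SLPI together made 82.6 ± 2.22% of this sum in shCtrl and 64.2 ± 6.87% in HIF1A-KD (SD, n = 4 each). The groups overlapped in neither quantity, although the sums came close, with 21228 RPKM in the lowest shCtrl and 20972 RPKM in the highest HIF1A-KD library. Reads of the 10 genes were 2.02 ± 0.373% of all reads in shCtrl and 1.52 ± 0.123% in HIF1A-KD (SD, n = 4 each). No test was made of sums over genes chosen together.

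Across the 2 lines, the WFDC-type inhibitors and cystatin M/E (CST6) were lower in HIF1A-KD, and the Kazal inhibitors SPINK5 and SPINK7 and cystatin A had higher estimates. Without pairing, 0 of the 10 genes passed limma at an adjusted p of 0.05, against 0.0420% of the 11899 genes tested (0.0168% lower and 0.0252% higher). At an unadjusted p of 0.05 there were 8 of the 10, against 7.80% of all genes. Limma-voom on reads recovered from the values likewise called 0, with 8 at an unadjusted p of 0.05. With median-of-ratios scaling of the libraries, limma called 0, with 5 at an unadjusted p of 0.05, against 923 of the 11899 genes. SPINK5, SPINK7 and CSTA were then not under it (limma unadjusted p = 0.0713, 0.0529 and 0.0886), although their estimates stayed above 0. With the library number as a block, WFDC12, WFDC5, SLPI and CST6 fell, 4 of 10, and 0 rose. In that fit 1.83% of all genes passed, of which 1.09% fell and 0.740% rose. Groups did not overlap for the same 4 genes, lower in HIF1A-KD, against 5.40% of all tested genes, 2.13% lower and 3.27% higher. PI3 was lower as well in all 4 pairs, which makes 5 of the 10 genes, against 10.7% of all genes. SPINK5, CSTA and A2ML1 were higher in all 4, against 18.6% of all genes. The median log2 change of the 10 genes was −0.60, and that of all tested genes 0.064. With 6 estimates below 0 and 4 above, the median falls in a gap between SLPI (−1.07) and SPINK6 (−0.14). It therefore describes no shift shared by the 10 genes.

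**Figure D2:**
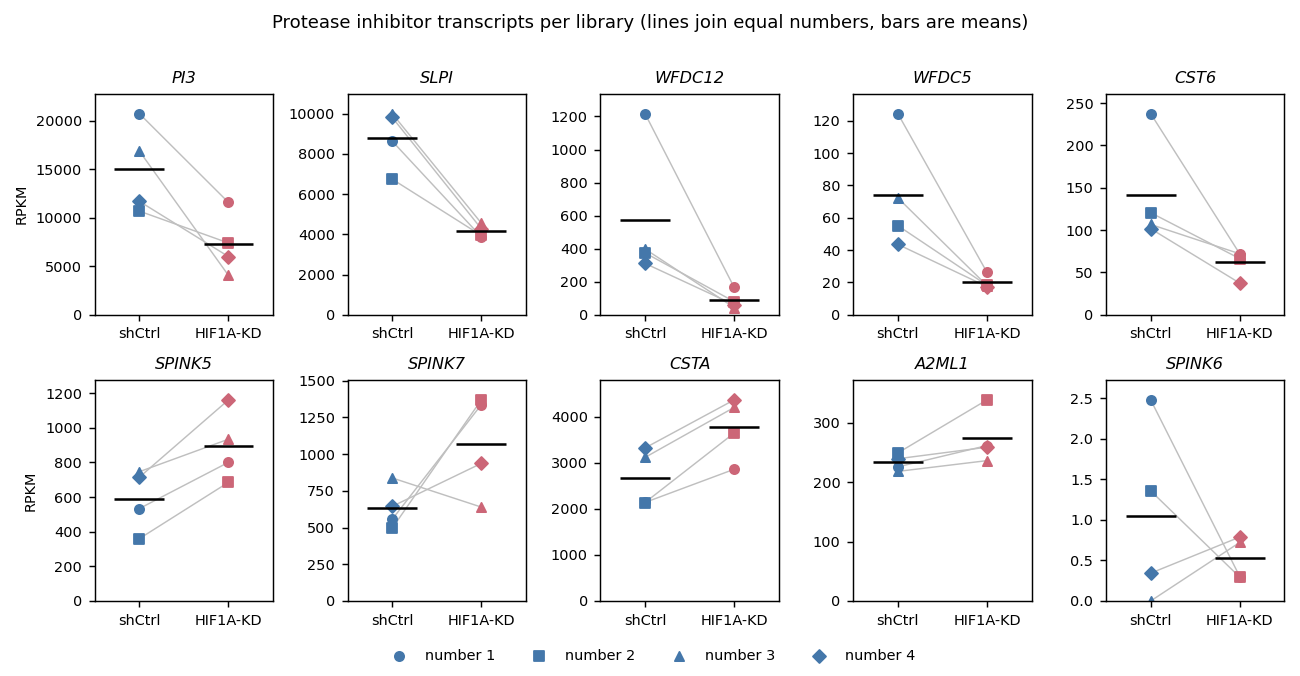
RPKM of each inhibitor in each library (y axes from 0, 1 panel per gene). Points are libraries, grey lines join shCtrl and HIF1A-KD libraries of equal number, and black bars are group means. WFDC12, WFDC5, SLPI and CST6 show no overlap between the lines, while SPINK6 lines cross.

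WFDC12, which encodes a small WFDC-type inhibitor, had the largest change of the 10 inhibitors. It held 1217, 374, 398 and 311 RPKM in shCtrl 1 to 4, and 165, 79.2, 43.4 and 60.4 RPKM in HIF1A-KD 1 to 4. Every HIF1A-KD library was below every shCtrl library, and in both lines library 1 was the highest. The means were 575 ± 430 and 87.1 ± 54.2 RPKM (SD, n = 4 each), so that HIF1A-KD held 15.1% of the shCtrl mean. The log2 change was −2.67 (SE 0.51) and did not pass limma unpaired (adjusted p = 0.127). It passed with the block (SE 0.17, adjusted p = 0.00435), where it ranked 6 by p among all genes. The shCtrl mean rests largely on shCtrl 1 and was 361 RPKM without it, and the unpaired log2 change was then −2.23 (adjusted p = 0.160).

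WFDC5, its neighbour, encodes another secreted WFDC-type protein. It held 124, 55.1, 72.3 and 43.5 RPKM in shCtrl 1 to 4 and 26.2, 18.2, 18.0 and 17.4 RPKM in HIF1A-KD 1 to 4. The 3 lower HIF1A-KD libraries lay close together, and library 1 was again the highest in both lines. Means were 73.8 ± 35.7 and 19.9 ± 4.18 RPKM (SD, n = 4 each), with a log2 change of −1.79 (SE 0.31). The limma adjusted p was 0.0897 unpaired and 0.00909 with the block.

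SLPI, the secretory leukocyte protease inhibitor, was at 0.436 to 0.584 of the shCtrl level across the 4 pairs. It held 8642, 6749, 10010 and 9823 RPKM in shCtrl 1 to 4, against 3872, 3943, 4559 and 4278 RPKM in HIF1A-KD 1 to 4. The lowest shCtrl library was well above the highest HIF1A-KD library, and libraries 3 and 4 were above 1 and 2 in both lines. Means were 8806 ± 1499 and 4163 ± 318 RPKM (SD, n = 4 each), and HIF1A-KD held 47.3% of the shCtrl mean. The log2 change was −1.07 (SE 0.17, limma adjusted p = 0.0629 unpaired). It passed with the block (SE 0.10, adjusted p = 0.0104).

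PI3 encodes elafin, an elastase inhibitor that transglutaminases cross-link into the cornified envelope. It held 20745, 10687, 16884 and 11699 RPKM in shCtrl 1 to 4. The HIF1A-KD libraries held 11580, 7399, 4050 and 5995 RPKM. HIF1A-KD 1 lay above shCtrl 2, so the groups overlapped, and each HIF1A-KD library was below the shCtrl library of its number. The ratio within a number was 0.558, 0.692, 0.240 and 0.512 for numbers 1 to 4. The log2 change of −1.10 (SE 0.34) did not pass limma unpaired (adjusted p = 0.377) or with the block (SE 0.25, adjusted p = 0.0904). In 2 of 13 settings with the block it passed, where either library of number 3 was left out (−0.78, limma adjusted p = 0.0435 without shCtrl 3 and 0.0437 without HIF1A-KD 3). Leaving out a library of number 1, 2 or 4 gave limma adjusted p of 0.138 to 0.255 with the block.

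These 4 genes are neighbours. In the deposited table's coordinates, those of hg19, WFDC5 (chr20:43738093-43743813, minus strand), WFDC12 (chr20:43752067-43753106, minus strand), PI3 (chr20:43803540-43805185, plus strand) and SLPI (chr20:43880880-43883205, minus strand) lie within 145.1 kb. Only 2 other genes of the table, the semenogelin genes SEMG1 and SEMG2, lie wholly between them, and neither went above 0.199 RPKM in any library. The 4 genes of this stretch with more than trace reads, which lie on both strands, all had lower means in HIF1A-KD. The stretch was looked at after the values were seen.

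**Figure D3:**
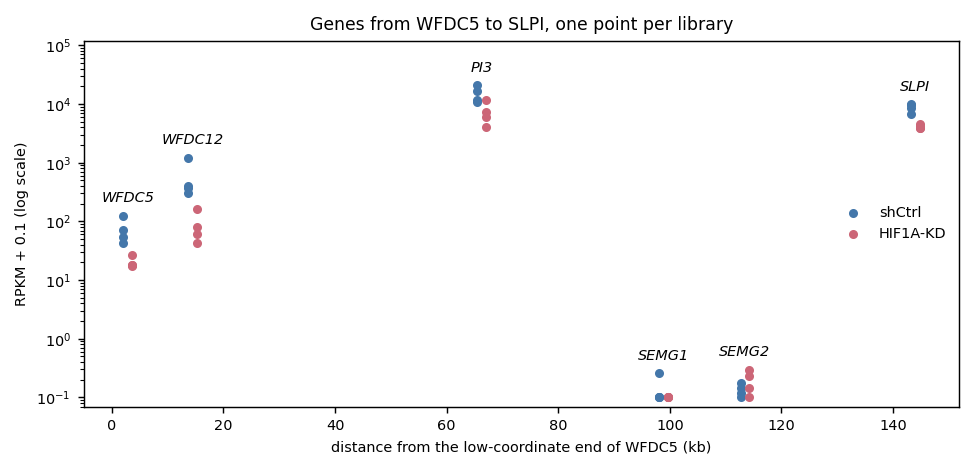
RPKM + 0.1 (log scale) of the 6 genes from WFDC5 to SLPI against distance from the low-coordinate end of WFDC5 in kb, 1 point per library, with the 2 lines set slightly apart sideways. WFDC5, WFDC12 and SLPI are lower in every HIF1A-KD library, PI3 overlaps, and SEMG1 and SEMG2 are near 0.

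Among the cystatins, the 2 genes went in opposite directions. CST6 (chr11:65779462-65780976, plus strand) encodes cystatin M/E, an inhibitor of legumain and of cathepsins L and V. It held 238, 121, 107 and 102 RPKM in shCtrl 1 to 4 and 71.8, 66.2, 71.9 and 37.3 RPKM in HIF1A-KD 1 to 4. All HIF1A-KD values were below all shCtrl values, with shCtrl 1 far above the other 3. The log2 change was −1.15 (SE 0.32, limma adjusted p = 0.325 unpaired). With the block it passed narrowly (SE 0.20, adjusted p = 0.0495). Without shCtrl 1 the unpaired log2 change was −0.87 (adjusted p = 0.490).

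CSTA (chr3:122044011-122060815, plus strand) encodes cystatin A, a cytosolic inhibitor that is also a cornified envelope precursor. It held 2138, 2136, 3115 and 3320 RPKM in shCtrl 1 to 4. The HIF1A-KD values were 2858, 3644, 4200 and 4364 RPKM. Each HIF1A-KD library exceeded its shCtrl counterpart, and the ranges overlapped through HIF1A-KD 1. The log2 change was 0.50 (SE 0.22) and did not pass limma unpaired (adjusted p = 0.633) or with the block (adjusted p = 0.0618).

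The Kazal-type genes lie on chromosome 5, with SPINK5 (chr5:147443535-147516925), SPINK6 (chr5:147582357-147594700) and SPINK7 (chr5:147691990-147695481) on the plus strand within 251.9 kb. SPINK5 encodes LEKTI, an inhibitor of kallikreins 5 and 7 in the outer layers. It held 533, 360, 746 and 714 RPKM in shCtrl 1 to 4 and 801, 685, 934 and 1161 RPKM in HIF1A-KD 1 to 4. Libraries 3 and 4 were above 1 and 2 in both lines, as for SLPI and CSTA, and HIF1A-KD was higher within every number. The log2 change was 0.63 (SE 0.27), with a limma adjusted p of 0.610 unpaired and 0.0544 with the block (SE 0.11). It passed in 3 of 13 settings with the block. These were where either library of number 3 was left out (0.74, limma adjusted p = 0.0416 and 0.0414) and limma-voom (adjusted p = 0.0416). Leaving out a library of number 1, 2 or 4 gave limma adjusted p of 0.0832 to 0.267 with the block, and median-of-ratios scaling 0.107.

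SPINK7, an inhibitor of urokinase that marks differentiated esophageal epithelium, had an uneven pattern over the pairs. It held 556, 495, 837 and 644 RPKM in shCtrl 1 to 4, and the HIF1A-KD libraries held 1336, 1369, 639 and 937 RPKM. Within numbers 1 and 2 the HIF1A-KD library held 2.40 and 2.76 times the shCtrl level, and within numbers 3 and 4 it held 0.763 and 1.46 times that level. The log2 change of 0.72 (SE 0.28) did not pass limma unpaired (adjusted p = 0.537) or with the block (adjusted p = 0.284). The gene overlaps LOC102546294 on the other strand, which stayed at or below 0.475 RPKM. It is not known here whether reads were counted by strand.

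SPINK6, an inhibitor of several kallikreins, was near the limit of detection. It held 88, 43, 0 and 12 reads in shCtrl 1 to 4 and 10, 14, 25 and 22 reads in HIF1A-KD 1 to 4. It reached the filter of 0.5 RPKM in exactly 4 libraries, 2 of each line. The 0 reads of shCtrl 3 allow up to 0.0781 RPKM, the level of 3 reads, for counting error alone. The log2 estimate was −0.14 (SE 0.93, limma adjusted p = 0.998). It was −2.29 in libraries 1 and 2 and 2.02 in libraries 3 and 4, so no direction can be given.

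A2ML1 (chr12:8975150-9029381, plus strand) was the least variable of the inhibitors in shCtrl. It held 226, 249, 218 and 239 RPKM in shCtrl 1 to 4 and 261, 338, 236 and 259 RPKM in HIF1A-KD 1 to 4. The values were a little higher in HIF1A-KD within every number, and the ranges overlapped. The log2 change was 0.22 (SE 0.16, limma adjusted p = 0.855 unpaired and 0.255 with the block).

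**Figure D4:**
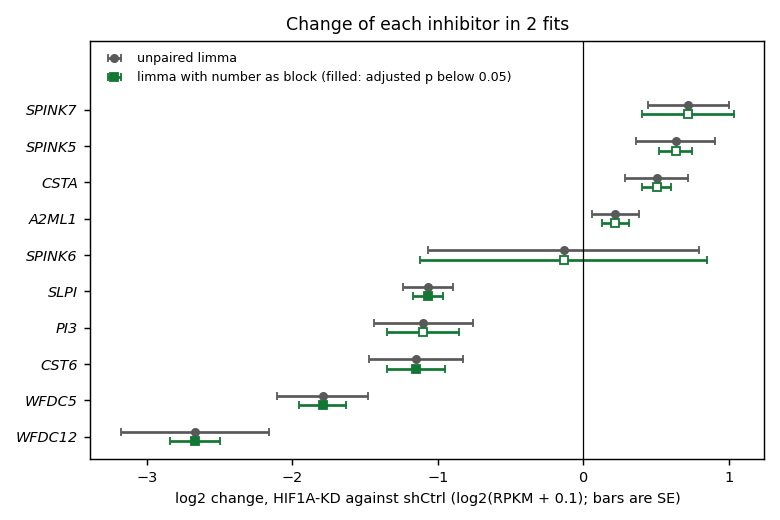
Log2 change of each inhibitor, HIF1A-KD against shCtrl, on the log2(RPKM + 0.1) scale, with SE bars. Circles are unpaired limma, where no gene passed. Squares are limma with the library number as a block, filled for WFDC12, WFDC5, SLPI and CST6, whose adjusted p was below 0.05.

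The calls made with the block depended on single libraries, for all genes as for the inhibitors. Of the 10 genes, limma called 0 without HIF1A-KD 2, with 7 at an unadjusted p of 0.05. It then called 1 of all 11899 genes, with 1497 at an unadjusted p of 0.05. Without shCtrl 1 or shCtrl 2 only WFDC12 was called, among 20 and 5 of all genes. Without HIF1A-KD 1 only WFDC12 and WFDC5 were called, among 33 of all genes. Without either library of number 4 WFDC12, WFDC5 and SLPI were called, among 239 (shCtrl 4) and 180 (HIF1A-KD 4) of all genes. Without either library of number 3 there were 6, with PI3 and SPINK5 added, among 213 (shCtrl 3) and 204 (HIF1A-KD 3) of all genes. Such fits rest on the remaining pairs. Libraries 1 and 2 parted from 3 and 4 on the first principal component, a split that the labels do not name. In libraries 1 and 2 and in libraries 3 and 4 the log2 changes were −2.56 and −2.78 for WFDC12, −1.92 and −1.66 for WFDC5, −0.97 and −1.17 for SLPI, and −1.29 and −1.01 for CST6. PI3 had −0.69 and −1.51, SPINK5 0.76 and 0.51, and CSTA 0.59 and 0.41. SPINK7 had 1.37 and 0.08. With that split as a term in limma, SLPI (adjusted p = 0.00542), WFDC12 (0.0286) and WFDC5 (0.0358) passed, and the other 7 did not. Of all 11899 genes, 102 passed in that fit.

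The authors' deposited table, made from the same libraries, lists 7 of the 10 genes at an adjusted p below 0.05, against 9.02% of its 13627 genes. The authors' deposited table gives moderated ratios of HIF1A-KD to shCtrl of 0.186 for WFDC12, 0.317 for WFDC5, 0.472 for SLPI, 0.473 for CST6 and 0.511 for PI3. For SPINK5 and CSTA the authors' deposited table gives 1.44 (adjusted p = 0.00839) and 1.33 (adjusted p = 0.0172). SPINK7, at 1.44 (adjusted p = 0.170), A2ML1 and SPINK6 were not under that limit in the authors' deposited table.

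To set inhibitors beside proteases that they are known to act on, the log2 ratio of RPKM was taken within each library for 8 pairs. SPINK5 stood at log2 ratios of 1.03, 1.67, 3.00 and 2.49 over KLK5, the kallikrein that starts the desquamation cascade, in shCtrl 1 to 4. The HIF1A-KD log2 ratios were 3.40, 3.79, 4.12 and 4.71. The groups did not overlap, and the mean ratio was 3.89 times higher in HIF1A-KD (log2 difference 1.96, SE 0.52). KLK5 was the 1 gene of 26 tested target proteases called with the block, where it fell, with shCtrl at 149 ± 76.7 RPKM and HIF1A-KD at 55.8 ± 13.9 RPKM (SD, n = 4 each). Its limma adjusted p was 0.0224 with the block and 0.245 unpaired, while SPINK5 passed in neither fit. Over KLK7, the chymotrypsin-like kallikrein, the log2 ratio of SPINK5 was 2.59 ± 0.57 in shCtrl and 3.48 ± 0.57 in HIF1A-KD (SD, n = 4 each), and the groups overlapped.

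CST6 stood at log2 ratios of 4.08, 2.43, 2.38 and 2.05 over LGMN, which encodes legumain, in shCtrl 1 to 4. Those of HIF1A-KD 1 to 4 were 1.358, 1.094, 1.301 and 0.337. The ratio was lower in every HIF1A-KD library (log2 difference −1.71, SE 0.52), with LGMN at 20.3 ± 4.56 and 29.4 ± 1.24 RPKM (SD, n = 4 each). CSTA over CTSL, the cathepsin L gene, went the other way, from log2 ratios of 6.07 ± 0.14 to 6.75 ± 0.27 (SD, n = 4 each), again without overlap. By a two-sided exact permutation test, 4 against 4, these 3 ratios had p = 0.0286, the smallest possible value, and 0.0762 after adjustment over the 8 pairs. None of the 8 pairs passed. After adjustment the smallest possible p falls below 0.05 only if most of the pairs reach it. The test could therefore not decide on any 1 pair, whatever the size of its difference. The other 4 log2 differences were 0.67 for CSTA over CTSB (exact permutation p = 0.0571), 0.505 for SPINK7 over the urokinase gene PLAU, −0.53 for CST6 over CTSV, and 1.19 for SPINK6 over KLK5, with adjusted exact p of 0.114 to 0.486.

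**Figure D5:**
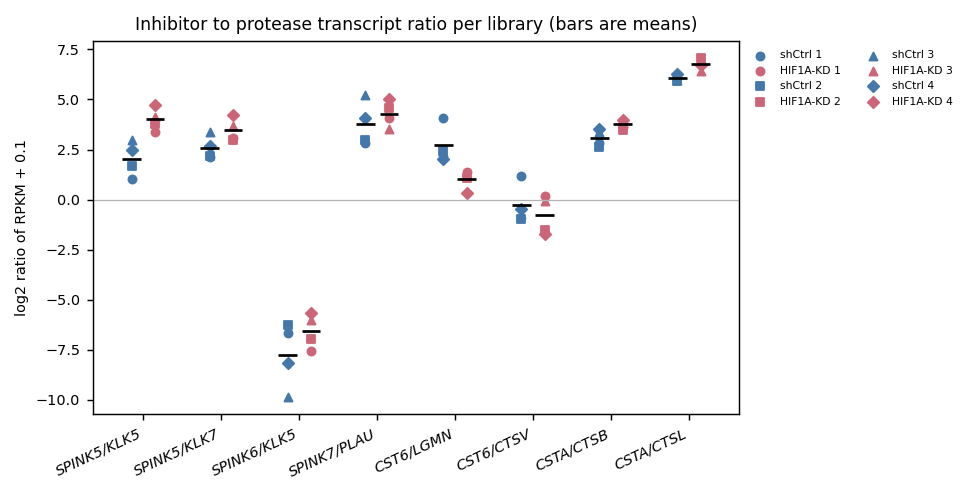
Log2 ratio of inhibitor to protease RPKM (with 0.1 added to each) in every library for 8 pairs, with group means as bars. The 2 lines do not overlap for SPINK5/KLK5, CST6/LGMN and CSTA/CTSL.

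Further inhibitors of the same or related families were mostly absent or did not pass. Of 45 listed, 42 were in the table and 12 could be tested. SPINK1, a trypsin inhibitor, fell with the block (limma adjusted p = 0.0259, and 0.702 unpaired). The shCtrl level was 8.95 ± 5.60 RPKM and the HIF1A-KD level 4.37 ± 3.67 RPKM (SD, n = 4 each). SPINK1 was the only call among these 12, in a fit where 1.83% of all genes passed. Of the 12 estimates 6 were below 0, with a median log2 change of 0.025. Of the target proteases, 1 of 26 fell and 0 rose with the block, against 1.09% and 0.740% of all genes. Their median log2 change was −0.18. Groups did not overlap for 7 of the 26, against 5.40% of all genes. Of these 7, KLK14 (log2 change −2.38), CASP14 (−2.11), KLK6 (−1.84), KLK5 (−1.32) and KLK10 (−0.66) were lower in HIF1A-KD, and TMPRSS11E (1.41) and LGMN (0.56) were higher. They were named after their values were seen, and KLK5 alone among them passed with the block. Elastase (ELANE), the target of PI3 and SLPI products, was at 0 in every library. Of the transglutaminase genes, which encode the enzymes that link elafin into the envelope, 0 of 4 passed. TGM1 held 375 ± 146 and 305 ± 196 RPKM and TGM3 15.6 ± 11.5 and 34.97 ± 25.2 RPKM (SD, n = 4 each). Their log2 changes were −0.43 (limma adjusted p = 0.943) and 1.36 (limma adjusted p = 0.799).

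Levels of suprabasal differentiation markers differed between the lines too. The summed RPKM of 6 mucosal suprabasal genes was 1186 to 6102 in shCtrl and 7801 to 11158 in HIF1A-KD, and 0 of the 6 passed in either fit. This sum is mostly SPRR3, with means of 2242.6 RPKM in shCtrl and 5784 in HIF1A-KD. All 6 mucosal estimates were above 0, and groups did not overlap for 3 of the 6, against 5.40% of all genes. The summed RPKM of 6 epidermal suprabasal genes was 340 to 607 in shCtrl and 690 to 2271 in HIF1A-KD. With the block KRT10 rose (adjusted p = 0.0432, limma) and CDSN fell (adjusted p = 0.00488). The epidermal sum is mostly KRT10 and KRT1, and of the 6 estimates 3 were above 0 and 3 below. Besides CDSN, those below were LOR (log2 change −2.92) and FLG (−0.45), which did not pass with the block (limma adjusted p = 0.169 and 0.535) or unpaired (0.659 and 0.983). In these bulk cultures, fewer cells of a layer and less RNA per cell cannot be told apart, and the part of these shifts in the inhibitors' changes was not tested.

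The candidates were 7086 genes with a mean of at least 5 RPKM. The 10 inhibitors, all related and marker genes listed, and LOC, LINC and MIR names were left out. Among the candidates, the genes most alike to each inhibitor were ranked by Pearson's r of log2(RPKM + 0.1) over the 8 libraries. These r include the difference between the lines and are the highest of many, so they describe the libraries only. For WFDC12 the 3 most alike were SPRR2G (0.985), SERPINB7 (0.982) and AZGP1 (0.981). For WFDC5 they were AZGP1 (0.983), SPRR2G (0.957) and SERPINB7 (0.956), the same 3 genes. WFDC5 and WFDC12, not candidates for each other, had r = 0.974 (0.883 with each line's mean removed). On that centred scale PI3 had r = 0.749 with WFDC5 and 0.893 with WFDC12. SLPI did not vary with these genes, at −0.083 with WFDC5, −0.278 with WFDC12 and −0.074 with PI3. Its centred r was 0.904 with SPINK5 and 0.788 with CSTA. SERPINB7 (0.953) was also among the 3 for PI3, after WDR83 (0.955) and PAX8 (0.955). SLPI had other partners, which were BCL2L1 (0.986), BCAR1 (0.980) and PRB1 (0.980). With each line's mean removed, r was 0.944 for WFDC12 with SPRR2G, 0.907 for WFDC5 with AZGP1, 0.972 for PI3 with SERPINB7 and 0.859 for SLPI with BCL2L1. For CST6 the first was ELOVL7 (0.987), for CSTA VPS4B (0.980), for SPINK5 CALCOCO2 (0.952), for A2ML1 CDR2L (0.932) and for SPINK6 MOCS3 (0.887).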

How the data were processed

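RNA-seq of 8 libraries was used, 4 per line, grouped by their titles. Per the submitters' processing notes HTSeq 0.6.1 and TopHat2 2.0.13 were among the tools, and both GRCh37/hg19 and GRCh38/hg38 are named. Gene coordinates in the deposited table are those of hg19. The deposited expression values are RPKM made by the authors, although the table is named for raw counts. Multiplying RPKM by gene length recovered whole reads (tolerance 0.01 read) in 100% of values, leaving aside 597 genes whose length could not be read. The authors' second table holds a mean normalised signal per group, p-values, and a moderated fold ratio with its log2. The sources used here do not give the tool behind that deposited comparison.

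Two-sided tests used limma 3.58.1 under R 4.3.3, with a mean-variance trend and robust moderation, on log2 of RPKM with 0.1 added. A gene had to reach 0.5 RPKM in 4 or more libraries (11899 did, all 10 inhibitors among them). Benjamini-Hochberg adjustment ran over all of them, with a threshold of 0.05. Limma-voom on recovered reads, other pseudocounts, filters and scaling, the library number as a block, a term for libraries 1 and 2 against 3 and 4, and leaving out each library were tried as alternatives. The fits were tested on simulated data.

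Libraries of equal number deviated together from their line's mean, with correlations across genes of 0.754, 0.730, 0.252 and 0.257. All passed a limit of 0.1, so the number was taken as pairing them, a reading of the data that no label states. That limit does not single out libraries of equal number, since shCtrl 1 with HIF1A-KD 2 passed it too (0.120). For numbers 3 and 4 the pairing is uncertain, since shCtrl 3 correlated at 0.463 with HIF1A-KD 4 and shCtrl 4 at 0.613 with HIF1A-KD 3. Both values are above the 0.252 and 0.257 of equal number, and the block and the pair counts use equal numbers. Intervals and detection limits cover counting error only. All 10 inhibitors, up to 3 called genes of each related list (or its 2 most abundant), the ratios' proteases and the 3 most alike genes are named. Of the 3 most alike, only the first is printed for 5 inhibitors, and those of SPINK7 are not reported here. The inhibitors, lists and tests were chosen with earlier results of these data known.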

Additional observations from a re-analysis of the deposited data

Results flagged for a closer look

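Among 36 groups of 4 libraries checked (10 genes and 8 ratios in each line), 4 held a library set apart from its neighbours by nearly the whole range of the group (Dixon's criterion). Chance flags about 1 in 20 groups. WFDC12 in shCtrl 1 (1217 RPKM) and CST6 in shCtrl 1 (238 RPKM) stood above the other shCtrl libraries. WFDC5 in HIF1A-KD 1 (26.2 RPKM) stood above the other HIF1A-KD libraries, and CST6 in HIF1A-KD 4 (37.3 RPKM) below them. In 3 of the 4 it was a library numbered 1 that was high.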

How the results depend on the processing

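The log2 changes of WFDC12, WFDC5, SLPI, PI3 and CST6 stayed below 0, and those of SPINK5, SPINK7, CSTA and A2ML1 above 0, under all 30 alternatives run. These are not 30 separate estimates. The block, the split term and the filters leave the estimate as it was. With the block, leaving out either library of a number gives the same estimate. Median-of-ratios scaling moved the median log2 change of all genes from 0.064 to −0.0077. The count of genes called, 5, was 8 with that scaling, 3 with a pseudocount of 1, 3 with 0.01, 3 by limma-voom, 0 with no filter and 0 in libraries 1 and 2 only. It was 102 with the split term, and leaving out 1 library gave 0 to 3. With the replicate block it was 218, and 1 to 239 with 1 library left out (20 without shCtrl 1, 213 without shCtrl 3, and 33, 204 and 180 without HIF1A-KD 1, 3 and 4). Settings with the block that were chosen after seeing the data gave 256 with scaling, 231 with a pseudocount of 1, 334 by limma-voom and 0 with no filter, where the many genes at 0 enter the fit.

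The count of inhibitors called, 0, was 4 with the replicate block, 3 with the split term, and 4 with the block and scaling, 4 with the block and a pseudocount of 1, and 5 with the block and limma-voom. With the block it ran from 0 to 6 when 1 library was left out. SPINK5 was the gene that limma-voom with the block added. SPINK6 changed sign at a pseudocount of 0.01 (0.55), in libraries 3 and 4 only (2.02), and by limma-voom (0.49). It also did without 1 library, at 0.54 (shCtrl 1), 0.26 (shCtrl 2), 0.046 (HIF1A-KD 1) and 0.054 (HIF1A-KD 2), and ranged down to −1.03 without shCtrl 3. The cause was not tested. With the block its values were 0.72 without number 1 and 0.45 without number 2. The count of ratios passing was 0 in every setting, and with the replicate block, 4 pairs allow no exact p below 0.125. In the other settings the smallest exact permutation p, 0.0286, passes adjustment only if most of the ratios reach it. The count of 0 therefore does not speak to the size of any 1 ratio's difference. At these depths counting error limits SPINK6 only.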
